A study of Mus musculus with 5 samples.

Results

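The 10 genes described here are the insulin-like growth factor (IGF) ligands Igf1 and Igf2, the receptors Igf1r and Igf2r, and the IGF binding proteins Igfbp2, Igfbp3, Igfbp4, Igfbp5, Igfbp6 and Igfbp7. They were chosen by name, and each had exactly 1 probe set among the 22206 of the array, of which 19572 carried a single gene symbol. All cells were 3T3-L1, a mouse fibroblast line that turns into fat cells in culture, and this single line stands in for adipocytes in general. Every culture was differentiated with IBMX (0.5 mM), dexamethasone (1 µM) and insulin (5 µg/mL) over 4 days, followed by 2 days with insulin as the only agent and 1 day without it. RPMI-1640 containing 10% fetal bovine serum then replaced the medium of all cultures for 72 h. In the exposed group (3 arrays) human MM.1S multiple myeloma cells shared this medium behind a transwell membrane with 0.4 µm pores, and the control group (2 arrays) had the medium alone. The labels call the arrays replicates without stating separate cultures, so the p-values rest on a spread that may be technical only.

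IGF1 and IGF2 are small secreted hormones related to insulin. Both act mainly through the receptor tyrosine kinase IGF1R, which signals through insulin receptor substrates to PI3K and AKT and through adaptor proteins to the MAP kinases, while IGF2R takes IGF2 up for degradation and sorts lysosomal enzymes. Binding proteins hold most extracellular IGF, and proteases release it. In 3T3-L1 cells, IGF or a high dose of insulin acting on IGF1R is part of what starts the conversion into adipocytes, and IGF1 is a known growth and survival factor for myeloma cells.

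Adipocyte markers were bright for the most part, though not all of them, and the preadipocyte marker Dlk1 was bright too. The median log2 value of an array ranged from 4.80 to 4.88. Averaged over 11 measured adipocyte markers, the log2 value was 9.00 to 9.09 on exposed and 9.09 on both control arrays. Group means of the 11 were higher on exposed arrays for 3 genes and lower for 8. By signal percentile among all probe sets, Fabp4 stood at 99.8, Adipoq at 99.4 and Pparg at 98.9, but Cebpa at 67.2, Slc2a4 at 61.9 and Lep at 26.3. Dlk1, an imprinted gene that is known to fall silent as preadipocytes mature, stood at 98.1, so these values do not show that differentiation was complete. B and plasma cell markers averaged 3.92 to 4.14 on exposed and 3.93 to 4.14 on control arrays over 10 genes. Xbp1 and Sdc1 of that list were bright, at signal percentiles of 92.4 and 82.2. Means of the 10 were higher on exposed arrays for 5 genes and lower for 5. Macrophage markers averaged 3.16 to 3.37 on exposed and 3.18 to 3.43 on control arrays over 7 genes. The 7 measured preadipocyte and fibroblast markers averaged 8.02 to 8.07 on exposed and 8.12 on both control arrays, with no overlap, and 2 of the 7 had higher and 5 lower means on exposed arrays. The array probes mouse genes, so any RNA of the human cells was not measured as such.

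None of the 10 genes passed the test between exposed and control arrays. At a limma adjusted p under 0.05, 0 of the 10 were called, beside 0 of all 22206 probe sets (0% called); without moderation of the variance the count was also 0 for both. At an unadjusted p under 0.05 there was 1 member, Igfbp3, where 3.49% of all probe sets reached that level. Which member fell under 0.05 changed with the fit. With the variance allowed to follow the signal level, the limma p was 0.054 for Igfbp3 and 0.015 for Igf2 (adjusted p 0.93 for each). Group means were higher on exposed arrays for 6 members and lower for 4, with a median difference of 0.030, and over all probe sets 49.9% were higher with a median of -0.00040. All 10 intervals for the difference lay within a 2-fold change in either direction, as did those of 92.9% of all probe sets. For 6 of the 10 the interval also lay within 1.5-fold, against 52.7% of all probe sets. All 10 probe sets were brighter than the median probe set, at signal percentiles from 56.0 to 98.4. That is a statement about array signal and does not rank the RNA of different genes. Nor does it show that the members nearest the median were expressed, since no detection calls were given. These were Igfbp2 at 56.0, Igfbp6 at 58.6 and Igfbp5 at 59.1.

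**Figure D1:**
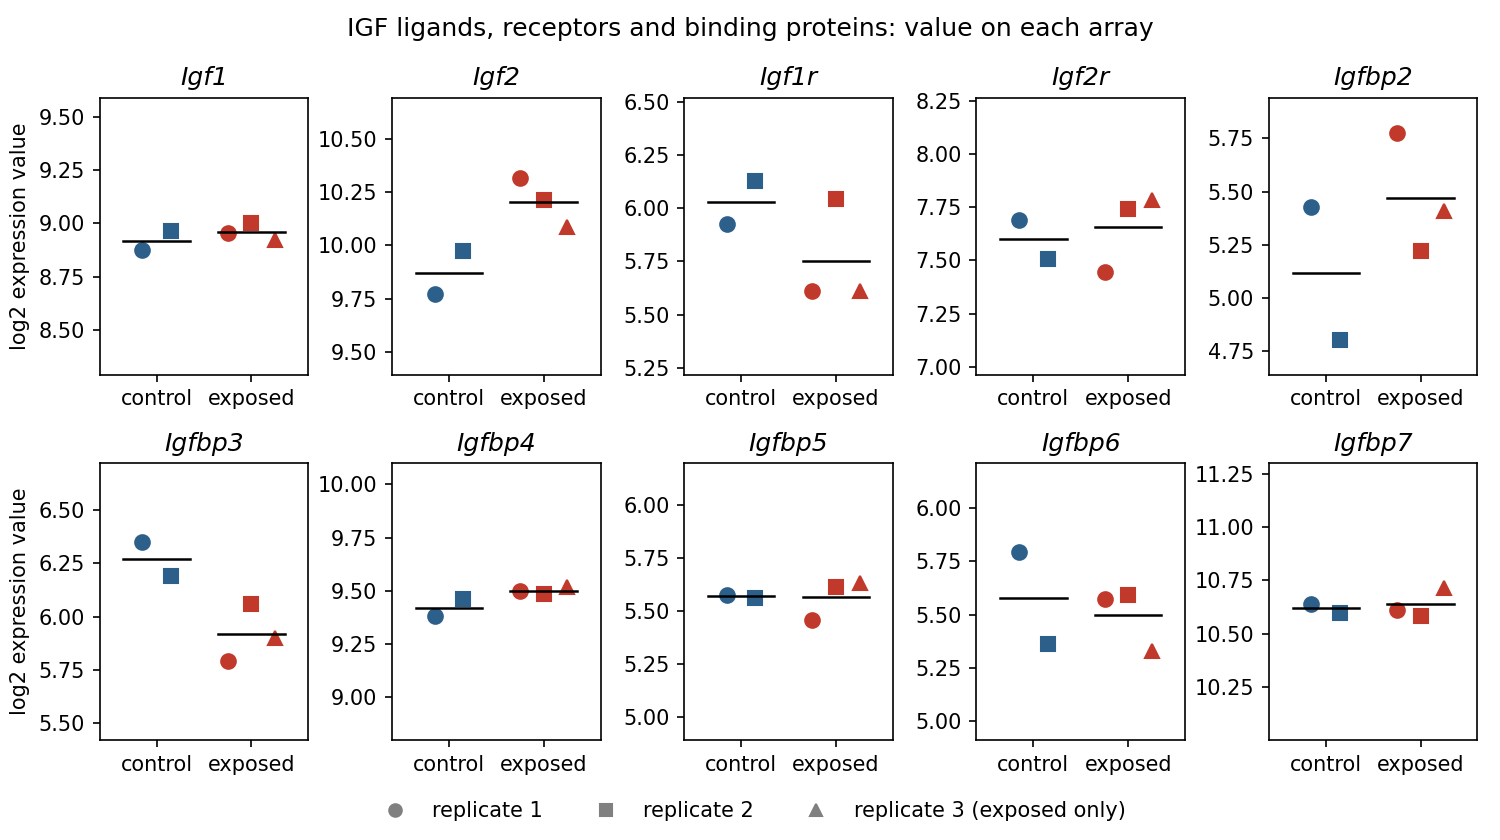
Log2 expression value of each IGF gene on each array (vertical axis, the same span of 1.3 log2 units in every panel), with control arrays in blue, exposed arrays in red, marker shapes for the replicate number and black lines at the group means. Exposed and control points are separate for Igf2, Igfbp3 and Igfbp4 and overlap for the other 7 genes.

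Of the ligands, Igf1 was the steadier across arrays and Igf2 differed more. Igf1, whose product is the main activator of IGF1R, read 8.96, 9.00 and 8.92 on the exposed arrays and 8.87 and 8.96 on the control arrays. The groups overlapped, and the whole range over 5 arrays was 0.13, narrower than that of all but 3.86% of probe sets. The difference was 0.042 ± 0.12 (limma SE; n = 3 and 2), with a 95% interval of -0.25 to 0.33 and a limma adjusted p of 0.97. On the linear scale that interval runs from 0.84 to 1.26 times the control level.

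Igf2, the imprinted ligand best known for growth before birth, read 10.32, 10.22 and 10.09 on exposed arrays against 9.77 and 9.98 on control arrays. Every exposed value lay above both control values, with a gap of 0.11 between the nearest arrays of the groups. The means were 10.21 ± 0.11 (SD, n = 3) and 9.87 ± 0.15 (SD, n = 2). The difference of 0.33 ± 0.14 (limma SE) equals 1.26-fold, its interval ran from -0.0096 to 0.68, and it did not pass (limma p 0.055, adjusted p 0.93). Among all probe sets, 8.5% had every exposed value above both control values.

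The Igf2 value can be set beside those of its neighbours and regulators. In the RefSeq annotation of GRCm38.p6 no protein-coding gene lies between Igf2 and Ins2, an insulin gene. Ins2, named after its values were seen, read 5.78, 5.55 and 5.91 on exposed and 5.51 and 5.27 on control arrays, also without overlap. It stood at a signal percentile of 59.5, which does not by itself show that it was expressed. Its difference was 0.36 (-0.043 to 0.75, limma adjusted p 0.93). Plagl1, an imprinted zinc finger gene that is known to act on the Igf2 region, differed in the other direction by -0.42 (-0.94 to 0.10), and Zfp57, whose product keeps imprints in place, by -0.41 (-0.76 to -0.067). Neither passed (limma adjusted p 0.93 for each), and Plagl1 was dim, at a signal percentile of 26.6. Of the 7 measured genes of the list of Igf2 locus and RNA-binding protein genes, 2 had higher and 5 lower means on exposed arrays. Of these 7, 0 passed in either direction.

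The receptors gave no called difference, and their values overlapped between the groups. Igf1r, the signalling receptor, read 5.61, 6.04 and 5.61 on exposed arrays and 5.93 and 6.13 on control arrays. Exposed arrays 1 and 3 were low and exposed array 2 lay between the control values. The difference was -0.27 ± 0.18 (limma SE), with an interval of -0.71 to 0.17 and an adjusted p of 0.93. Leaving out exposed array 2 gave -0.42 (limma p 0.039, adjusted p 0.85), and leaving out control array 2 gave -0.17.

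Igf2r, the receptor that clears IGF2, read 7.44, 7.74 and 7.78 on exposed and 7.69 and 7.51 on control arrays. Here exposed array 1 was the lowest of all 5 and exposed array 3 the highest. The difference was 0.056 (-0.33 to 0.44, limma adjusted p 0.97), or 0.80 to 1.36 times the control level. Its sign turned when exposed array 3 or control array 2 was left out.

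The closely related insulin receptor gene Insr read 8.09, 8.27 and 8.07 on exposed and 7.92 and 8.01 on control arrays. Its groups did not overlap, and the difference of 0.18 (-0.14 to 0.50) did not pass (limma adjusted p 0.93).

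The 6 binding protein genes were split 3 higher and 3 lower in mean, with a median difference of 0.0080. Igfbp3 and Igfbp2 had the widest differences of all 10 members, in opposite directions. Igfbp3, whose product carries most circulating IGF together with the acid-labile subunit, read 5.79, 6.06 and 5.90 on exposed arrays and 6.35 and 6.19 on control arrays. All exposed values lay below both control values, the nearest by 0.13. The means were 5.92 ± 0.14 (SD, n = 3) and 6.27 ± 0.11 (SD, n = 2). The difference was -0.35 ± 0.14 (limma SE), or 0.78 times the control level, with an interval of -0.70 to -0.0088. The interval left out 0 before adjustment (limma p 0.046) and the gene did not pass after it (adjusted p 0.93). Among all probe sets, 8.84% lay lower without overlap and 1.68% were lower at an unadjusted p under 0.05.

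Igfbp2, whose product is secreted by fat cells and binds IGF2 well, read 5.78, 5.22 and 5.41 on exposed arrays and 5.43 and 4.80 on control arrays. Exposed array 1 was high and control array 2 low, and the other 3 arrays lay within the overlap of the groups. Its range of 0.97 over the arrays was the widest of the 10 members and wider than that of 91.5% of probe sets. The difference was 0.35 ± 0.25 (limma SE) with an interval of -0.25 to 0.96 (adjusted p 0.93). Single arrays moved it. The difference was 0.20 without exposed array 1, 0.040 without control array 2 and 0.67 without control array 1. The fits without a control array took the spread from the exposed arrays. By the smallest root-mean-square distance between array values centred on their own mean, the genes most like Igfbp2 over the 5 arrays were Defb3 (0.034), Cdx1 (0.052) and Iqcf6 (0.053). These 3 had signal percentiles of 12.4, 40.3 and 30.9, below the 56.0 of Igfbp2. With 5 arrays and 22206 probe sets, this likeness is a description only.

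Igfbp5 lies next to Igfbp2 in the same annotation, with no coding gene between them, and it ordered the arrays differently. Igfbp5, whose product binds to the extracellular matrix, read 5.46, 5.61 and 5.63 on exposed and 5.58 and 5.56 on control arrays. The control values lay inside the exposed range, and exposed array 1 was the lowest here where it was the highest for Igfbp2. Igfbp5 spanned only 0.17 over the 5 arrays, narrower than all but 7.11% of probe sets, so its array order carries little weight. The difference was -0.0017 (-0.31 to 0.31, limma adjusted p 1.00), the smallest of the 10. Igfbp1, the neighbour of Igfbp3, read 3.42, 3.75 and 3.26 on exposed arrays and 3.66 and 3.40 on control arrays. It was dim, its groups overlapped, and its difference was -0.057 (-0.51 to 0.40, limma adjusted p 0.98). Igfbp1 was not among the 10 and is named after its values were seen.

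Igfbp4, whose product inhibits IGF action until it is cut by the protease PAPP-A, read 9.50, 9.48 and 9.52 on exposed and 9.38 and 9.46 on control arrays. The exposed values lay above both control values by 0.024 at the nearest, in a total range of 0.14. Its difference of 0.079 (-0.21 to 0.37) did not pass (limma adjusted p 0.95). The separation of the 3 genes Igf2, Igfbp3 and Igfbp4 makes 3 of 10 members without overlap, where 17.3% of all probe sets did not overlap. A value shared by arrays of both groups counts as overlap. Some value was repeated between arrays in 6038 of the 22206 probe sets but in 0 of the 10 members. The 2 shares are therefore not on an equal footing.

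Igfbp6, which prefers IGF2 over IGF1, read 5.57, 5.59 and 5.33 on exposed arrays and 5.80 and 5.36 on control arrays. The control arrays differed by 0.43, more than the range of 0.27 among exposed arrays, and the difference of -0.081 (-0.52 to 0.35, limma adjusted p 0.96) turned its sign without exposed array 3 or control array 1. Igfbp7, a weak IGF binder that cells secrete into the matrix, read 10.61, 10.59 and 10.72 against 10.64 and 10.60. Its difference was 0.018 (-0.28 to 0.32, limma adjusted p 0.99), and control values lay inside the exposed range.

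**Figure D2:**
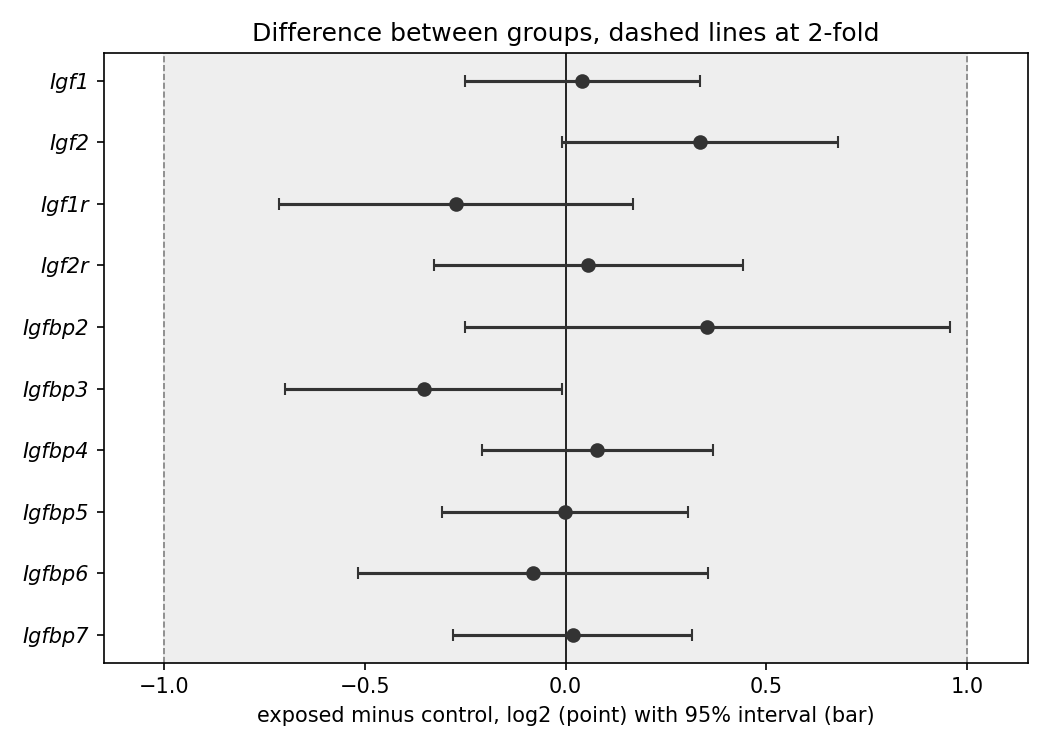
Difference between the group means (exposed minus control, log2, horizontal axis) for each IGF gene, with the 95% interval of the limma fit as a bar and dashed lines at a 2-fold change. Every bar lies between the dashed lines, and the Igfbp3 bar (-0.70 to -0.0088) is the 1 that does not cross 0.

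Averaged over the family, the arrays differed little. The mean deviation of the 10 genes from their own 5-array means was -0.0061, 0.046 and -0.020 on exposed arrays 1 to 3 and 0.034 and -0.055 on control arrays 1 and 2. Exposed array 1 held the lowest value of 4 genes and the highest of 2, while exposed array 3 held the highest value of 4 genes and the lowest of 1. The mean absolute deviation of the 10 was largest on exposed array 1 (0.16) and smallest on exposed array 2 (0.076). Over all probe sets exposed arrays 1 and 3 stood at 0.18 each and exposed array 2 at 0.13. The median within-group SD was 0.13 for the 10 genes and 0.19 for all probe sets.

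**Figure D3:**
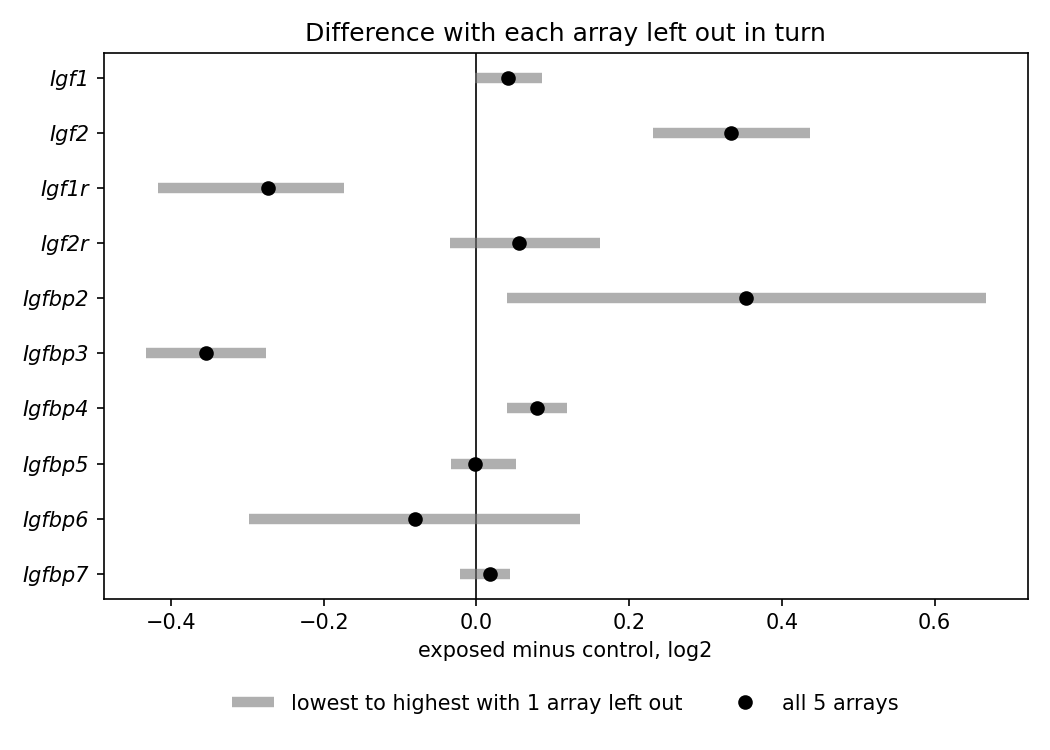
Difference of each IGF gene (exposed minus control, log2, horizontal axis) with all 5 arrays (black point) and the lowest to highest value when 1 array was left out (grey bar). The bars of Igf2, Igf1r, Igfbp2, Igfbp3 and Igfbp4 stay on 1 side of 0, and that of Igfbp2 is the widest, from 0.040 to 0.67.

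Other genes of the pathway were read from the same fit. Of 74 measured genes in 6 lists, limma called 0 higher and 0 lower, and the fit without moderation also called 0. At an unadjusted p under 0.05 there were 5 genes (Prss23, Ddr1, Grb2, Map2k1 and Zfp57), all with lower means on exposed arrays, where 1.68% of all probe sets were lower at that level and 1.82% higher. Means were higher for 30 and lower for 44 genes, with a median difference of -0.048. Groups did not overlap for 5 genes on the higher and 16 on the lower side (28.4% in all, against 17.3% of all probe sets). Over all probe sets 8.5% lay higher and 8.84% lower without overlap. Of the 74 genes, 57 were brighter than the median probe set, so they do not mirror the whole array in signal. Values repeated between arrays, which can make groups overlap, occurred in 13 of the 74 genes and in 6038 of the 22206 probe sets. Averaged over the 74 genes, the log2 value was 6.25 to 6.33 on exposed and 6.35 to 6.36 on control arrays. Lower means were not confined to the pathway lists. Of the adipocyte markers, 3 had higher and 8 lower means on exposed arrays. Preadipocyte and fibroblast markers, like the 74 genes, were lower on every exposed array in mean. They share Dlk1 and Ccn5 with these lists, and their part in the counts was not tested. Dlk1 read 10.44, 10.34 and 10.23 on exposed and 10.68 and 10.55 on control arrays (limma adjusted p 0.93), and is named after its values were seen. In such bulk samples fewer cells of a type and less RNA per cell cannot be told apart.

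Carriers and proteases that set how much IGF is free showed no called difference. Igfbpl1, which encodes a protein resembling the binding proteins, read 3.84, 3.45 and 3.58 on exposed and 3.32 and 3.25 on control arrays, a difference of 0.34 (-0.040 to 0.72) in a dim probe set (signal percentile 31.7). Htra1, a secreted protease with an IGF binding protein-like domain, differed by -0.33 (-0.75 to 0.086). Of the 12 carriers and related genes 6 were higher and 6 lower in mean.

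Pappa, the protease that cuts IGFBP4, read 6.93, 7.13 and 7.18 against 7.14 and 7.10, a difference of -0.038 (-0.37 to 0.29). Its inhibitors, the stanniocalcin genes, differed by 0.067 (-0.24 to 0.38) for Stc1 and 0.17 (-0.48 to 0.82) for Stc2, with Stc2 dim. Prss23, a secreted serine protease gene, had the widest difference of all pathway genes: it read 7.69, 7.96 and 7.37 on exposed and 8.24 and 8.18 on control arrays, or -0.54 (-1.01 to -0.065). The kallikrein family gene Klk1b22, also dim (signal percentile 32.4), differed by 0.32 (-0.25 to 0.89). Of these 12 genes 4 were higher and 8 lower in mean, and none passed (limma adjusted p 0.93 or more).

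Among partners of the receptors, Ddr1, a collagen receptor that associates with IGF1R, read 4.62, 4.60 and 4.45 on exposed and 4.86 and 5.22 on control arrays. Its difference was -0.48 (-0.86 to -0.096), without overlap. Ptpn1, a phosphatase that removes phosphate from the insulin receptor, differed by -0.31 (-0.70 to 0.088). Grb10, an imprinted adaptor that inhibits the insulin receptor and IGF1R, differed by -0.14 (-0.44 to 0.16) at a signal percentile of 3.35. The list of 11 had 4 genes higher and 7 lower in mean, and 0 passed.

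Below the receptors, 10 of 24 measured genes were higher and 14 lower in mean, with a median of -0.014. Grb2, the adaptor that links the receptors to RAS, read 6.49, 6.57 and 6.49 on exposed and 7.06 and 7.02 on control arrays. The gap between its groups was wider than the range within either group. The difference of -0.53 (-0.82 to -0.24) had a limma p of 0.0042 and an adjusted p of 0.93. Grb2 is named for having the widest difference of this list, and 8.84% of all probe sets lay lower without overlap. Map2k1, the MAP kinase kinase MEK1, read 7.45, 7.50 and 7.30 against 7.84 and 7.81, a difference of -0.41 (-0.72 to -0.095, adjusted p 0.93). The substrate gene Irs1 differed by -0.23 (-0.56 to 0.10) and Irs2 by 0.084 (-0.23 to 0.40).

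In the growth hormone axis, which drives Igf1 in liver and fat, 4 of 8 genes were higher and 4 lower in mean. Ghr, the growth hormone receptor, read 10.26, 10.53 and 9.99 on exposed and 10.64 and 10.40 on control arrays, a difference of -0.26 (-0.73 to 0.21). Socs2, a feedback inhibitor that growth hormone induces, read 5.91, 5.91 and 5.91 against 6.41 and 6.01. It had exactly the same value on exposed arrays 2 and 3, one of the repeated values described above. Its difference was -0.30 (-0.68 to 0.080), with control array 1 apart from the other 4. None of these genes passed (limma adjusted p 0.93 or more).

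**Figure D4:**
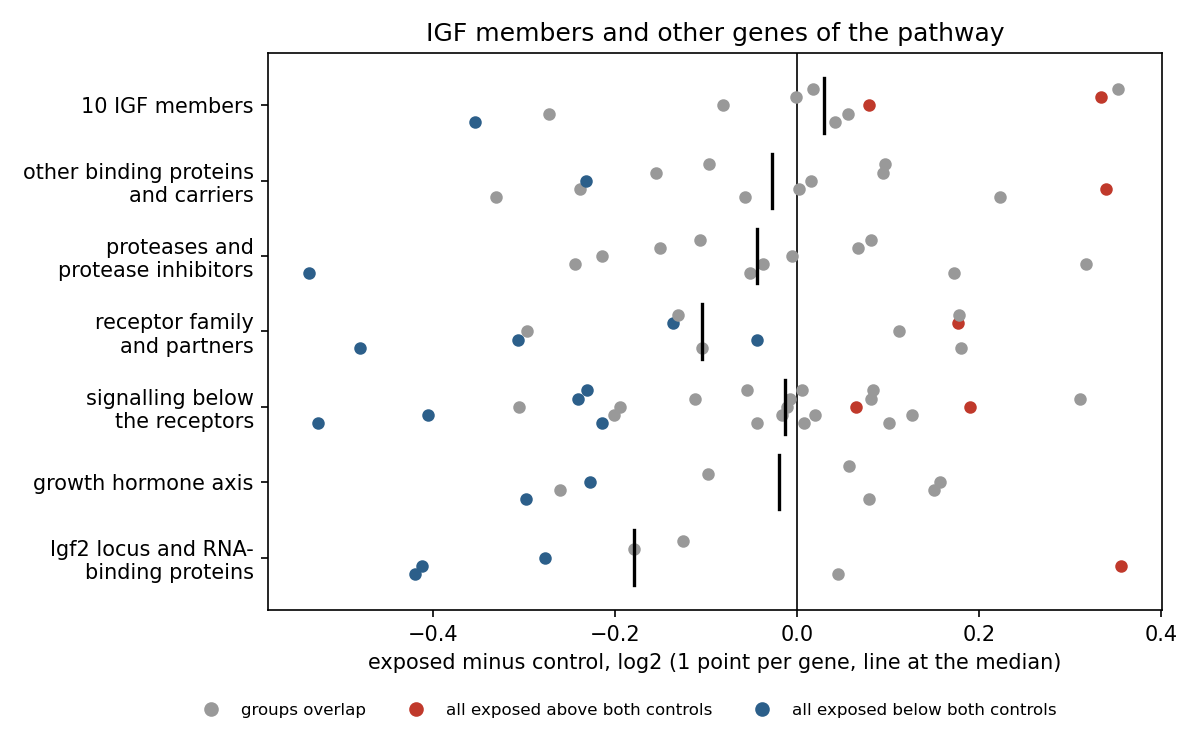
Difference (exposed minus control, log2, horizontal axis) of the 10 IGF genes and of the 6 lists of other pathway genes, 1 point per gene, coloured by whether exposed and control arrays overlap, with black lines at list medians. Medians run from -0.18 for the list of Igf2 locus and RNA-binding protein genes to 0.030 for the 10 IGF genes. In that list Ins2, the neighbour of Igf2, differed by 0.36, and most of its genes lie elsewhere in the genome. No coloured or grey point passed the test.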

How the data were processed

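Log2 expression values of 5 Affymetrix Clariom S mouse arrays were used as deposited; the authors made them with RMA in Partek, per the submitters' processing notes. RMA corrects background, makes the arrays' distributions alike and compresses differences between dim signals; versions and annotation build are not given in the sources used here. Detection calls were not part of the table, and the number of arrays limits precision. Symbols came from the platform annotation (19572 probe sets with 1 symbol, 0 with several, 2634 with none). RefSeq (GRCm38.p6) served for older symbols and gene order only.

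The group difference was fitted for all 22206 probe sets with limma 3.58.1 (lmFit, then eBayes; R 4.3.3) without other terms, and tested on both sides with Benjamini-Hochberg adjustment and a threshold of 0.05. Residual degrees of freedom were 3 and the prior added 3.17. The code was tested on simulated data. The members and lists were chosen with earlier results of these data known. Of the 85 listed pathway genes, those without a matched probe set, H19 and Igf2bp2 among them, were not analysed here. The naming rule took all 10 members, up to 4 called genes of each pathway list or else the 2 with the widest difference, and Insr, Irs1, Irs2, Ghr, Socs2, Pappa, Stc1, Stc2, Grb10, Igf2bp2 and H19 whatever their result. It also took the 3 genes most like the member with the widest range, leaving out predicted genes. Alternatives left out arrays, filtered dim probe sets, and changed the moderation, weights, scaling, block and threshold.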

Additional observations from a re-analysis of the deposited data

How the results depend on the processing

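The number of IGF genes and of pathway genes called was 0 under every alternative run, and the smallest limma adjusted p of a member was 0.84 (Igfbp2 without control array 1). The count of all called probe sets was 0 except at an unadjusted p under 0.05 with a 2-fold difference, which gave 4. Unadjusted p-values under 0.05 numbered 776 with all arrays, 362 in the brighter part of the table (a smaller table) and 760 to 1378 after dropping an array, with the maximum when control array 1 was dropped. Igf2, Igf1r, Igfbp2, Igfbp3 and Igfbp4 kept their sign under all 13 alternatives that give a difference, with ranges of 0.23 to 0.44, -0.42 to -0.17, 0.040 to 0.67, -0.43 to -0.28 and 0.039 to 0.12. The other 5 turned in sign at least once, and the cause was not tested. The filter of dim probe sets, the unmoderated fit and the variance trend left every member's difference unchanged, so no sign could turn there. The replicate block repeated the differences without exposed array 3, and the title number block those without exposed array 1. Thus the 13 alternatives are not 13 separate checks of the sign. With 1 array left out, ranges were -0.0021 to 0.086 for Igf1, -0.035 to 0.16 for Igf2r, -0.033 to 0.052 for Igfbp5, -0.30 to 0.14 for Igfbp6 and -0.022 to 0.044 for Igfbp7. Igf2r turned without exposed array 3 (-0.0068) or control array 2 (-0.035); Igfbp6 without exposed array 3 (0.0042) or control array 1 (0.14). Igfbp5 turned without exposed array 1 (0.052) or control array 1 (0.0053), with array weights (0.011) and with repeated quantile normalization (0.0055). With neighbouring title numbers as a block Igfbp5 was 0.052, the same value as without exposed array 1. Igfbp7 turned without exposed array 3 (-0.022) or control array 2 (-0.0033) and with arrays centred on their medians (-0.00018), and Igf1 without control array 1 (-0.0021). With the replicate number as a block, which leaves exposed array 3 without a partner, Igf2r was -0.0068, Igfbp6 0.0042 and Igfbp7 -0.022, and no call changed. Same-numbered arrays did not deviate together (correlations of -0.014 and -0.032 over all probe sets), so the numbers are not taken to pair them. Every member had 1 probe set, so averaging probe sets gave no further value. Scaling moved the median difference of all probe sets by 0.0022 (quantile) and -0.018 (median). Fits that keep 1 control array take its spread from the exposed arrays.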
